A study of Mus musculus with 69 samples.

Results

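The comparison described here is between unstimulated bone marrow-derived macrophages (BMDMs) of the wild-derived mouse strains SPRET/EiJ (SPRET) and PWK/PhJ (PWK). Its members are the libraries of these strains that received no IL-4, 3 from SPRET and 2 from PWK, 5 of the 69 samples of the series. The study asked how natural genetic variation shapes the response of macrophages to the cytokine IL-4, and its basal libraries give the state from which each strain starts. All cells were grown from the bone marrow of female mice in medium with M-CSF for 7 days, and poly(A) RNA was sequenced. SPRET mice descend from Mus spretus, a species apart from the house mouse, and PWK mice from Mus musculus musculus. Neither strain carries a transgene or deletion in these groups. Beside the 5 libraries stood 6 of the same strains after 24 h of IL-4 at 20 ng/mL, 9 basal libraries of the laboratory strains C57BL/6J (C57), BALB/cJ (BALB) and NOD/ShiLtJ (NOD), 2 basal SPRET libraries of a time course, and 2 basal libraries of F1 C57xSPRET cells. The SPRET libraries held 17.3, 17.7 and 18.2 M tags (mega, M; reads kept after alignment) and the PWK libraries 13.8 and 13.9 M. Expression is given in TPM (a level per transcript length, scaled to the size of the library), and counts per gene are not used here, so precision rests on the replicates. The methods call the libraries biological replicates without naming their mice, so p-values measure a spread between libraries. That spread is shared over all 29 libraries of the fit, which include the laboratory strains and the IL-4 groups.

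Macrophages of the bone marrow type mature under M-CSF, which signals through the receptor encoded by Csf1r. Even without infection they hold a low tonic output of type I interferon, which acts through the receptor IFNAR, the kinases JAK1 and TYK2 and a complex of STAT factors with IRF9 on interferon-stimulated response elements, short sequences with repeated GAAA, in the promoters of antiviral genes. IL-4 acts through another receptor and STAT6, and turns on genes of alternative activation such as Arg1.

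The antiviral genes of the interferon response were among those lower in SPRET. To show the element in them, the promoters of Ifit1, Ifit3, Isg15 and Rsad2 are printed as the 250 bases before the start site, 5' to 3' on the strand of the gene, with each match to GAAA, any 2 bases and GAAA again, on either strand, in capitals. They are from RefSeq on GRCm38.p6, the C57 reference, and hold no variant of SPRET or PWK. Ifit1 lies at chr19:34640639-34640888 on the plus strand, Ifit3 at chr19:34583279-34583528 on the plus strand, Isg15 at chr4:156200819-156201068 on the minus strand and Rsad2 at chr12:26456453-26456702 on the minus strand.
Ifit1: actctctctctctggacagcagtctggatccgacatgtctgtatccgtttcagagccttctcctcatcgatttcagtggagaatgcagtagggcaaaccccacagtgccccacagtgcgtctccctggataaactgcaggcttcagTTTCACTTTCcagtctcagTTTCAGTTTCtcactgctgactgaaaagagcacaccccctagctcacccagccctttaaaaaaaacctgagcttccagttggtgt
Ifit3: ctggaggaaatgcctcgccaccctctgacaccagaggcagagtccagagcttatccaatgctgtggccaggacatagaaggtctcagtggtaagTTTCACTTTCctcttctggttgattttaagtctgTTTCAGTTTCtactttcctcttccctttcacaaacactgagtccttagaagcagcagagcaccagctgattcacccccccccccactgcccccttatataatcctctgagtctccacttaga
Isg15: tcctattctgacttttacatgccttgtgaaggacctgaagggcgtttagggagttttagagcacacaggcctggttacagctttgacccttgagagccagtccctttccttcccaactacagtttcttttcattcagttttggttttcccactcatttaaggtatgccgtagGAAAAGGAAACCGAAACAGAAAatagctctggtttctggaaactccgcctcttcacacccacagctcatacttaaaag
Rsad2: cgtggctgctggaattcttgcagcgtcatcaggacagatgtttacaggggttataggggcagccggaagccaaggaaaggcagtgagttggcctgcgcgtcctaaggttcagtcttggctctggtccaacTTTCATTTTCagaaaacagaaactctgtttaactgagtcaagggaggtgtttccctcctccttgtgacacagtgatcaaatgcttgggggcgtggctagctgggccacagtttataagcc

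The matches numbered 2 in Ifit1, 2 in Ifit3, 3 in Isg15, where they overlap, and 1 in Rsad2. Over windows from 250 bases before to 50 bases after the start, the element was in 11 of the 21 antiviral genes that were higher in PWK and had a promoter in the table (52.4%), in 2 of the 8 other antiviral genes (25%), in 3.96% of the tested genes with a promoter and in 3.44% of all 32851 promoters. A match is a description of the reference sequence, and no binding was measured here.

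SPRET and PWK BMDMs differed in 2663 of 11907 genes tested. With limma on log2(TPM + 1), a fold change over 2 and an adjusted p under 0.05, 1687 genes (14.2%) were higher in SPRET and 976 (8.20%) were higher in PWK, together 22.4%. The median difference, SPRET minus PWK, was 1.40 on the log2 scale for the first group and -1.64 for the second, and a 4-fold difference was passed by 339 and 364 genes and a 16-fold difference by 48 and 72 genes. The libraries of each strain did not overlap in 1682 of the 1687 genes and in all 976, where 52.9% and 30.9% of all tested genes did not overlap in those directions. Pearson r across genes, which are not independent replicates, was 0.995 to 0.996 within a strain and 0.870 to 0.873 between the strains. As all tested genes had a median difference of 0.19, the balance of calls depends on the scaling: 63.3% of the calls were higher in SPRET with TPM as deposited and 49.5% after median-ratio scaling (1219 genes, 10.3%, and 1243 genes, 10.5%, together 20.8%), while quantile normalization gave 1248 and 1192. All 976 genes higher in PWK and 1219 of the 1687 higher in SPRET kept their call after median-ratio scaling. List medians are therefore given after subtraction of 0.19. In these bulk samples, fewer cells of a type and less RNA per cell cannot be told apart.

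**Figure D1:**
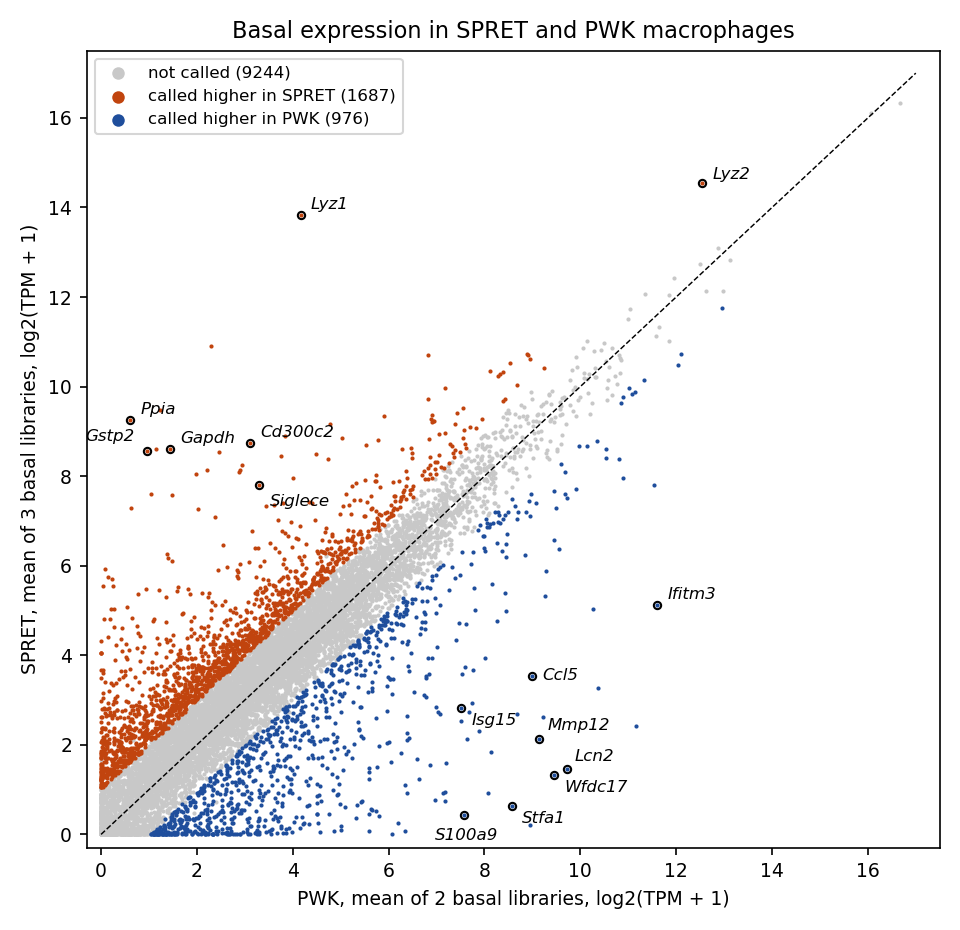
Mean expression of each tested gene in 2 basal PWK libraries (x axis) against 3 basal SPRET libraries (y axis), both in log2(TPM + 1), with the dashed line at equal levels. The 1687 genes called higher in SPRET lie above the line and the 976 called higher in PWK below it, with Lyz1 and Ifitm3 far from it on either side.

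Macrophage markers were abundant in all 5 libraries. All 12 macrophage markers passed the filter, 4 were higher in SPRET and 3 in PWK, and their median difference, so corrected, was 0.02. Cd68, a lysosomal glycoprotein, had 2531, 2699 and 2456 TPM in SPRET and 3224 and 3133 in PWK. Adgre1, which encodes F4/80, had 345, 369 and 349.9 against 360.0 and 337. Neither was called. The summed level of the 12 markers was 31617 to 32478 TPM in SPRET and 15634 to 15859 in PWK, and most of it came from Lyz2, lysozyme of macrophages, at 23589, 23771 and 24391 TPM against 5844 and 6086 (difference 2.00 ± 0.04 SE, adjusted p = 1.17e-23). Csf1r was higher in SPRET with 587, 601 and 581 against 123 and 116 TPM (2.30 ± 0.06, adjusted p = 1.07e-21). Laptm5, Lyz2 and Mertk, a receptor for dead cells, completed the 4. Fcgr1, the high-affinity receptor for IgG, was lower in SPRET with 1.37, 1.61 and 1.27 TPM against 30.5 and 28.2 (-3.65 ± 0.09, adjusted p = 4.22e-21), as were Ctss (-1.18 ± 0.04) and Cd14 (-1.12 ± 0.07). Tyrobp, Itgam and Aif1 were not called, with differences of 0.40, 0.78 and -0.46. The X-linked Xist had 8.10, 6.86 and 7.76 TPM in SPRET and 15.9 and 15.0 in PWK and was not called (-0.94 ± 0.14).

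Of the markers of other cells, those of osteoclasts, neutrophils and stroma reached the highest sums. Osteoclast markers, several of which macrophages also express, summed to 1180 to 1240 TPM in SPRET and 1895 to 1947 in PWK, with 2 genes higher in SPRET and 1 in PWK of 6. Of 12 neutrophil markers 7 were tested and 5 were higher in PWK, S100a9, Ltf, Ngp, Mmp8 and Prtn3, while 5 stayed under 1 TPM in all 5 libraries. The sum of the list was 345 to 405 TPM in SPRET and 566 to 571 in PWK. Most of it was S100a8, which was not called (394, 334 and 370.3 against 351 and 341 TPM), and in PWK S100a9. Of 8 stromal markers 3 were higher in PWK, with sums of 6.77 to 7.53 against 205 to 214 TPM, nearly all from Dcn, a matrix proteoglycan, at 5.84, 5.25 and 5.86 against 201 and 208 TPM (-4.95 ± 0.12, adjusted p = 4.43e-22). The stromal markers Pdgfra and Lum stood at 1.38 and 2.33 and at 1.79 and 2.18 TPM in PWK, and 3 members of the list were at 0 in all 5 libraries. Sums were at most 10.4 TPM for dendritic cell markers, 0.311 for B cell, 2.75 for T and NK cell, 6.91 for mast cell and 0.855 for erythroid markers in any of the 5 libraries. Calls were 1 of 3 tested for dendritic cells (Ccr7, higher in PWK), 0 of 1 for B cells, 0 of 3 for T and NK cells and 1 of 3 for mast cells, and no erythroid marker was tested. The part of other cells in the results below was not tested.

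The antiviral genes of the interferon response were lower in SPRET. Of 39 tested, 26 were higher in PWK and 3 were higher in SPRET, against 8.20% and 14.2% of all genes. These shares of all genes are the background for every list count below. The median difference of the antiviral genes was -2.89 after that of all genes was subtracted. After median-ratio scaling the counts were 28 and 3. Ifitm3, a membrane protein that blocks virus entry, had 33.1, 36.0 and 31.6 TPM in SPRET and 3079.5 and 3121 in PWK (-6.49 ± 0.06, adjusted p = 1.34e-29), a 92.3-fold ratio of the means. The C57, BALB and NOD means were 2504, 1559 and 2729 TPM, so SPRET was the lowest of the 5 strains.

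Isg15, a ubiquitin-like modifier, had 5.80, 6.79 and 5.59 TPM in SPRET and 195 and 166 in PWK (-4.68 ± 0.12, adjusted p = 1.47e-21). The GTPase gene Mx2 had 0.722, 1.08 and 0.875 against 150.2 and 131 TPM (-6.23 ± 0.13, adjusted p = 8.86e-23). Both genes showed no overlap between the strains, and the 4 genes whose promoters are printed went the same way. Ifit1, which binds foreign RNA ends, had 3.74, 4.83 and 3.87 against 44.6 and 36.8 TPM (-3.02 ± 0.13, adjusted p = 1.19e-16). Ifit3 had 1.11, 1.13 and 1.09 against 15.0 and 10.7 TPM (-2.70 ± 0.16). Rsad2, which encodes viperin, had 0.972, 1.46 and 1.15 against 33.8 and 27.1 TPM (-3.84 ± 0.12, adjusted p = 8.54e-20). As the SPRET levels of several of these genes are near 1 TPM, the differences on the log2(TPM + 1) scale understate the ratios.

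The exceptions were Ifi27l2a, with 69.4, 72.2 and 72.7 TPM in SPRET and 2.57 and 0.716 in PWK (4.87 ± 0.25), Oas1b, a member of the oligoadenylate synthase family with 13.5, 15.2 and 12.7 against 1.98 and 2.02 TPM (2.30 ± 0.12), and Ifi27 (1.31 ± 0.06). For these, PWK was the low strain among all 5 in 2 of 3 cases, where it was so in 725 of all 1687 genes higher in SPRET. Of the 26 genes higher in PWK, SPRET was below all 4 other strains in 25, and PWK was above all 4 in 8. Over all 976 genes higher in PWK these numbers were 800 and 374. All 26 were also below both basal PWK libraries in the 2 basal SPRET libraries of the time course, which were normalized separately. In F1 C57xSPRET cells, where both alleles share a nucleus, 17 of the 26 had allele values with the largest at 5 or more. The SPRET allele was the lower in both libraries for 10 and the higher in both for 5, with a median log2 ratio of SPRET to C57 allele of -0.18, where the same ratio between the strains was -3.30. For all 561 genes higher in PWK that passed the same allele cutoff, the SPRET allele was lower in both libraries for 376 and higher in both for 116. Their medians were -0.42 and -1.44.

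Of the interferon signalling genes, 17 tested, 2 were higher in SPRET and 3 in PWK. Irf7, the factor that amplifies the interferon response, had 36.3, 43.6 and 36.9 TPM in SPRET and 631 and 593 in PWK (-3.94 ± 0.07, adjusted p = 1.33e-24). Irf7 is itself induced by interferon, and its libraries did not overlap between the strains. The receptor chain gene Ifngr1 went the other way with 153, 151 and 155 against 50.9 and 47.0 TPM (1.62 ± 0.07), as did Irf3 (1.41 ± 0.09). Ifnb1 was not tested.

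The other interferon-inducible families held a larger share of calls in PWK than the 8.20% of all genes. Of 15 interferon-inducible GTPase genes 7 were higher in PWK and 0 in SPRET, among them Gbp3 (0.535, 0.841 and 0.533 against 15.6 and 9.97 TPM, -3.05 ± 0.13) and Gbp2 (-2.55 ± 0.10). Of 11 Ifi200 genes, a family of DNA sensors in a cluster of near relatives, 6 were higher in PWK, such as Ifi204 (-2.07 ± 0.11), and 1, Mndal, was higher in SPRET (2.66 ± 0.11). Of 8 Schlafen genes 3 were higher in PWK. The TRIM genes were nearest to that share, with 2 of 13 (15.4%) higher in PWK and 1 in SPRET. Called in either direction were 23.1% of them, near the 22.4% of all genes. Of 12 cytosolic sensors 4 were higher in PWK, among them Zbp1, a sensor of Z-form nucleic acid (-3.76 ± 0.11), and 1 in SPRET.

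**Figure D2:**
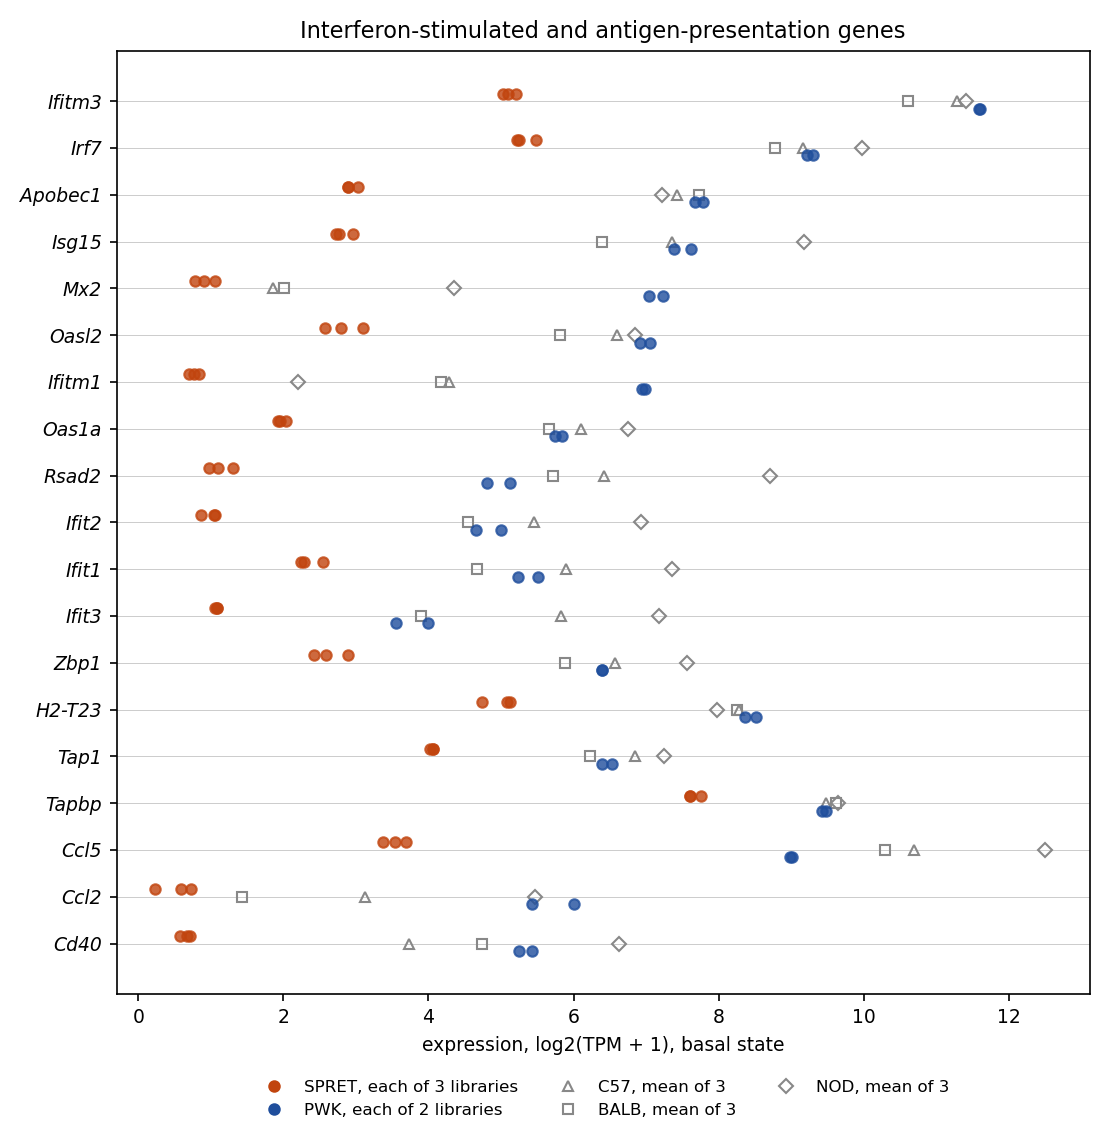
Expression of 19 interferon-stimulated, antigen-presentation and chemokine genes in log2(TPM + 1) at the basal state, with each SPRET and PWK library as a filled point and the means of C57, BALB and NOD as open grey triangles, squares and diamonds. All 19 were picked from genes called higher in PWK, so the 3 SPRET points lie left of both PWK points in every line. For Isg15 they are at 5.80, 6.79 and 5.59 TPM against 195 and 166. Genes called higher in SPRET, such as Ifi27l2a, Oas1b, Ifi27, Mndal and H2-M2, are not shown.

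Genes of MHC class I and its peptide loading were lower in SPRET. Of 30 tested, 20 were higher in PWK and 1 in SPRET (24 and 1 after median-ratio scaling), with a median difference of -1.47 by the same measure. H2-T23, a nonclassical molecule read by NK cells, had 25.7, 34.0 and 32.9 TPM in SPRET and 364 and 329.7 in PWK (-3.46 ± 0.08, adjusted p = 1.71e-22). Tap1, which carries peptides into the endoplasmic reticulum, had 15.8, 15.7 and 15.2 against 91.5 and 82.7 TPM (-2.41 ± 0.05, adjusted p = 3.04e-22). Neither overlapped, and the loading factor Tapbp was lower as well (-1.80 ± 0.05).

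The classical H2-K1 had 941, 961 and 928 TPM against 2315 and 2204 (-1.26 ± 0.05) and H2-D1 a difference of -1.23. B2m, the shared light chain, had 4428, 4715 and 4388 against 8116 and 8043 TPM. At -0.84 it was not called, and after median-ratio scaling, at -1.08, it was. H2-M2 was the 1 member higher in SPRET (2.28 ± 0.09), and in the 3 laboratory strains it was higher still, at 369, 316 and 1065 TPM against 159.5 in SPRET. SPRET was below all 4 other strains in 18 of the 20, where it was so in 800 of all 976 genes higher in PWK. The H2-Q genes are near copies of each other, H2-Q6 and H2-Q8 overlap in the annotation and have nearly equal values in each library, and their split is uncertain.

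Of 10 MHC class II genes 4 were higher in PWK and 1 in SPRET. The invariant chain gene Cd74 was not called (608, 661 and 648 against 721 and 702 TPM), and H2-Aa was higher in PWK (-1.18 ± 0.05). The 1 higher in SPRET was the pseudogene-named H2-Ea-ps, at 55.8, 57.9 and 66.6 TPM in SPRET and 0 and 0.105 in PWK, with 0.767, 223 and 0.261 in C57, BALB and NOD. Among 14 costimulatory genes 5 were higher in PWK and 4 in SPRET. Cd40, the receptor for T cell help, had 0.645, 0.592 and 0.489 TPM in SPRET and 42.2 and 37.0 in PWK (-4.69 ± 0.11, adjusted p = 1.11e-21). The CD28 ligands split, with Cd86 higher in PWK (0.219, 0.269 and 0.260 against 10.1 and 9.30 TPM, -3.10 ± 0.10) and Cd80 higher in SPRET (6.59, 7.28 and 5.82 against 0.249 and 0.145 TPM, 2.66 ± 0.14). Cd274, which encodes PD-L1, was higher in PWK (-3.06 ± 0.09).

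Chemokines and their receptors were lower in SPRET. Of 14 CC chemokine genes 9 were higher in PWK and 0 in SPRET, with a median difference of -2.19 by the same measure. Ccl5 had 9.35, 11.9 and 10.6 TPM in SPRET and 518 and 504 in PWK (-5.47 ± 0.08, adjusted p = 2.98e-26), and 1652, 1255 and 5807 TPM in C57, BALB and NOD. Ccl2, which draws monocytes, had 0.173, 0.510 and 0.656 against 63.1 and 41.9 TPM (-5.19 ± 0.20, adjusted p = 1.08e-17). SPRET was the lowest of the 5 strains in all 9 genes, where it was so in 800 of all 976 genes higher in PWK. Ccl3 (-2.13 ± 0.09), Ccl4 (-2.30 ± 0.08) and Ccl6 (-3.08 ± 0.08) moved with them.

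Of 10 CXC and CX3C genes 5 were higher in PWK, among them Cxcl2 (26.3, 19.3 and 24.0 against 104 and 112 TPM, -2.18 ± 0.09), and Cxcl14 was higher in SPRET (2.22 ± 0.08). Of 6 chemokine receptor genes 5 were higher in PWK, with Ccrl2 at -3.84 ± 0.08 and Cx3cr1 at -1.89 ± 0.10. For these receptors PWK was the highest of the 5 strains in 4 of 5, whereas for the CC ligands it was so in 1 of 9. Over all 976 genes higher in PWK it was so in 374.

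Cytokine genes were higher in PWK in 13 of 28 (46.4%) and in SPRET in 4 (14.3%, near the 14.2% of all genes). After median-ratio scaling the counts were 14 and 2, and the corrected median difference was -0.90. Spp1, osteopontin, had 246, 249 and 243 TPM in SPRET and 1786 and 1986 in PWK (-2.93 ± 0.06, adjusted p = 9.28e-24). Osm was higher in PWK (-2.62 ± 0.12), as was Il6, at 0, 0.0600 and 0.116 against 4.60 and 6.43 TPM (-2.61 ± 0.18). Igf1, a growth factor of tissue-type macrophages, was higher in SPRET (1.89 ± 0.07). Il1b, an agonist of the IL-1 receptor, had 622, 595 and 629 TPM in SPRET and 109.9 and 124 in PWK (2.39 ± 0.11, adjusted p = 7.03e-16). Il1rn, the antagonist of the same receptor, had 29.9, 34.6 and 31.2 against 1251 and 1211 TPM (-5.23 ± 0.07, adjusted p = 3.46e-26). Il18bp, the decoy of IL-18, was higher in PWK too (-3.27 ± 0.09). In the 3 laboratory strains Il1b stood at 28.8, 24.9 and 44.1 TPM, below the values of both wild-derived strains. The other agonist gene Il1a (-0.77) and the decoy receptor gene Il1r2 (-0.34) were not called. Of the 20 inflammasome and IL-1 genes 5 were higher in SPRET and 2 in PWK.

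Toll-like receptor genes and adaptors were called in both directions, 6 of 22 higher in SPRET and 4 in PWK. Tlr8 had 12.1, 13.1 and 11.5 against 1.52 and 0.934 TPM (2.58 ± 0.16), and the adaptor Myd88 58.0 ± 1.72 (SD, n = 3) against 15.8 and 15.7 TPM (1.82 ± 0.08). Tlr13, a sensor of bacterial ribosomal RNA, was higher in PWK (-2.13 ± 0.12), as was the kinase gene Irak2 (-2.37 ± 0.09). Tlr2 was not called, at 0.63 ± 0.08.

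The paired receptors of the immunoglobulin family were higher in SPRET. Of 34 tested genes, which encode activating and inhibitory partners that read self ligands, 22 were higher in SPRET and 1 in PWK (18 and 2 after median-ratio scaling), with a median difference of 1.05 by the same measure. Cd300c2 had 409, 433 and 434 TPM in SPRET and 7.88 and 7.38 in PWK (5.63 ± 0.07, adjusted p = 6.80e-27). Siglece, an inhibitory sialic acid receptor, had 226, 227 and 215 against 8.97 and 8.69 TPM (4.51 ± 0.13, adjusted p = 4.22e-20). For Cd300c2 the laboratory strains (270.4, 246 and 294 TPM) were near SPRET, and for Siglece (27.0, 21.4 and 14.6) near PWK.

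Lilra6 (35.9, 41.1 and 38.0 against 1.92 and 1.22 TPM, 3.95 ± 0.12), Cd300a (3.65 ± 0.08), Pira4 (3.24 ± 0.11), Pilra (2.44 ± 0.10) and Cd33 (2.05 ± 0.10) were of the same kind. The Pira and Lilra genes are close relatives, so that reads can be shared between them and their split is uncertain. The member higher in PWK was Siglec1, which is itself induced by interferon, at 1.74, 1.83 and 1.75 against 16.1 and 12.6 TPM (-2.46 ± 0.14). In F1 cells, 17 of the 22 had allele values with the largest at 5 or more. The SPRET allele was higher in both libraries for 12 and lower in both for 4. The median log2 ratio of SPRET to C57 was 0.97 for the alleles and 0.65 for the strains. For all 1320 genes higher in SPRET that passed the same cutoff, the allele counts were 892 and 255, and the medians were 0.26 and 0.79.

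Ligands of the NK receptor NKG2D and related genes were higher in SPRET in 8 of 13 and in PWK in 0 (6 and 0 after median-ratio scaling). H60b had 36.7, 34.3 and 37.1 TPM against 5.27 and 4.78 (2.62 ± 0.13, adjusted p = 4.23e-15). Clec2i had 16.2, 16.2 and 16.1 against 2.22 and 1.21 TPM (2.69 ± 0.10). The Raet1 genes, of which Raet1b is the furthest apart (3.88, 4.14 and 4.10 against 0.410 and 0.266 TPM, 1.92 ± 0.19), are close relatives and overlap in the annotation, so that their number is uncertain.

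Fc receptors, lectins and uptake receptors were called both ways. Fcgr3, the low-affinity IgG receptor, had 663, 687 and 689 TPM in SPRET and 167 and 177 in PWK (1.98 ± 0.06, adjusted p = 4.03e-19), against Fcgr1, which was higher in PWK. Of 9 Fc receptor genes 3 were higher in SPRET and 2 in PWK. Of 20 C-type lectin genes 4 were called in each direction. Mrc1, the mannose receptor, had 27.3, 29.3 and 26.3 against 0.557 and 0.589 TPM (4.19 ± 0.10, adjusted p = 4.04e-22). Clec4d had 56.9, 58.7 and 59.5 against 614 and 625 TPM (-3.39 ± 0.06, adjusted p = 1.40e-24), and its neighbour Clec4e, the receptor for cord factor, was also higher in PWK (-2.13 ± 0.07). Of 19 uptake receptors and bridging proteins 4 were called in each direction. Cd36, which takes up oxidized lipoprotein, had 90.0, 89.5 and 89.4 against 9.91 and 11.2 TPM (2.97 ± 0.09). Mfge8, a bridge between dead cells and integrins, had 1.76, 2.41 and 1.83 against 144 and 147 TPM (-5.61 ± 0.08, adjusted p = 1.66e-26).

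Receptors for formyl peptides, complement peptides and lipid mediators were higher in SPRET in 9 of 21 and in PWK in 4. Fpr1 had 50.1, 54.4 and 53.9 against 15.4 and 15.7 TPM (1.70 ± 0.12) and C5ar1 46.4, 46.4 and 48.3 against a mean of 13.9 (1.70 ± 0.12). Complement components were higher in PWK in 6 of 14 and in SPRET in 4. Cfb, complement factor B, had 95.9, 95.6 and 91.2 against 735 and 663 TPM (-2.88 ± 0.06). C1qa, C1qb and C1qc were also higher in PWK, at -2.34, -1.38 and -2.94, and both wild-derived strains were far below the C57 means of 409.6, 1180.5 and 619 TPM. The Ms4a genes were higher in PWK in 6 of 7, such as Ms4a7 (6.16, 8.79 and 7.34 against 110.3 and 106 TPM, -3.71 ± 0.08) and Ms4a6b (-4.81 ± 0.10). Of 16 integrin genes 4 were higher in PWK, with Itgax, the CD11c gene, at -3.02 ± 0.07, and 2 in SPRET.

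**Figure D3:**
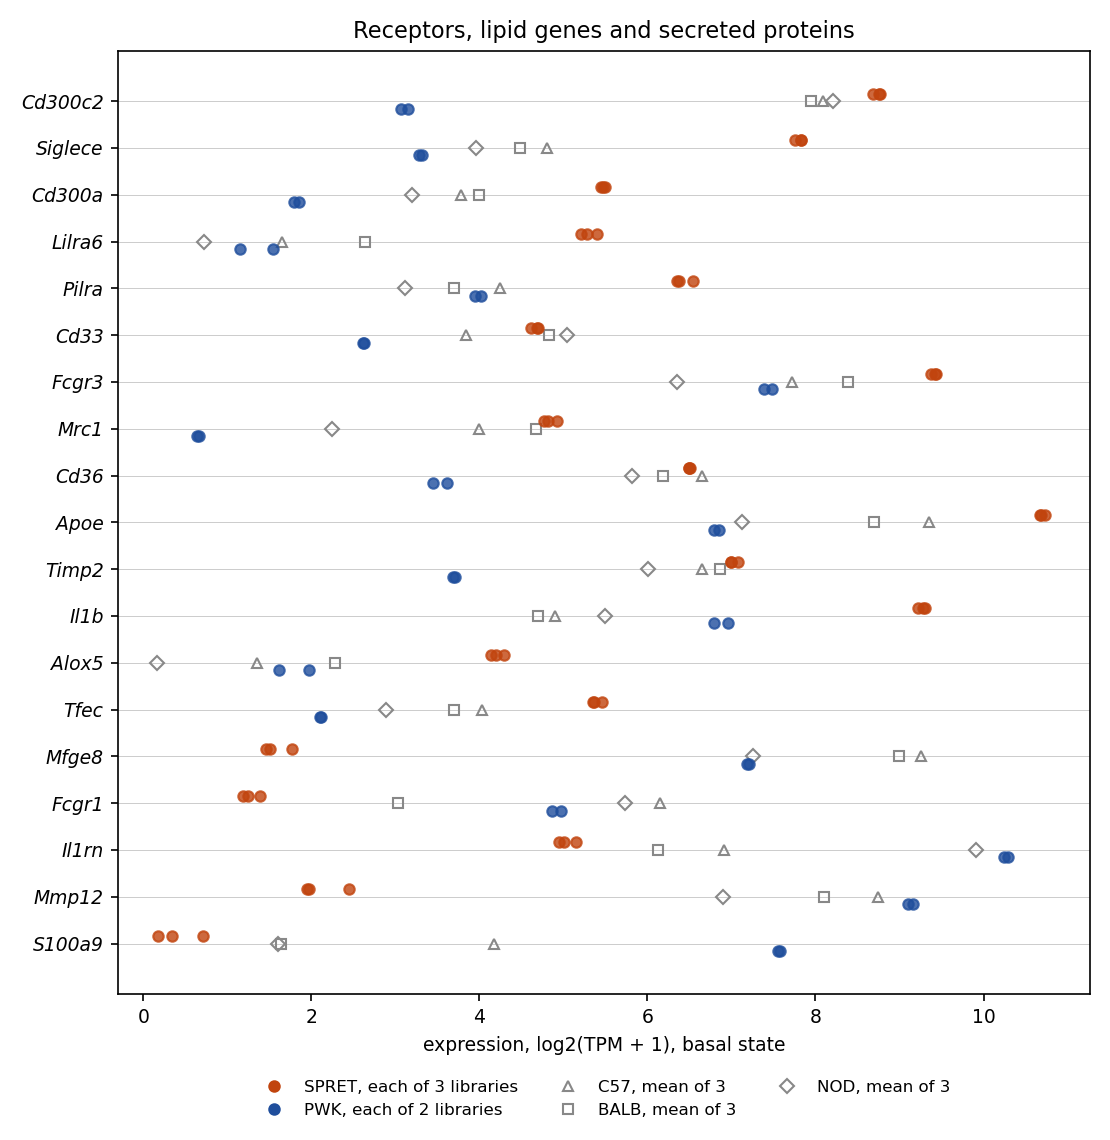
Expression of 19 receptor, lipid and secreted-protein genes in log2(TPM + 1) at the basal state, with each SPRET and PWK library as a filled point and the means of C57, BALB and NOD as open grey triangles, squares and diamonds. The upper 14 genes, from Cd300c2 to Tfec, have all SPRET points right of the PWK points, and the lower 5, from Mfge8 to S100a9, left of them.

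Apoe, the carrier of cholesterol out of macrophages, had 1637, 1639 and 1704 TPM in SPRET and 110.1 and 115 in PWK (3.87 ± 0.12, adjusted p = 1.32e-19). Of 31 genes of LXR targets and lipid handling 8 were higher in SPRET, among them the exporter Abca1 (1.77), and 5 in PWK, with a corrected median difference of 0.12. These are shares of 25.8% and 16.1%, both above those of all genes. Lpl, lipoprotein lipase, was among the 5, with 34.9, 30.2 and 29.1 against 228 and 216 TPM (-2.79 ± 0.09). Of 28 genes of cholesterol and fatty acid synthesis 7 were higher in SPRET and 0 in PWK, with Fasn, fatty acid synthase, at 1.35 among the 7. After IL-4 the count of the synthesis list was 15 and 0.

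Eicosanoid synthesis genes were higher in SPRET in 7 of 16 and in PWK in 1 (6 and 3 after median-ratio scaling). Alox5, which starts leukotriene synthesis, had 17.3, 18.5 and 16.6 against 2.94 and 2.07 TPM (2.41 ± 0.12, adjusted p = 1.79e-15), and Lta4h, which makes leukotriene B4, was higher too (1.51 ± 0.06). The cyclooxygenases split, with Ptgs1 at 11.2, 11.1 and 11.4 against 2.01 and 3.04 TPM (1.81 ± 0.10) and the inducible Ptgs2 at 0.389, 0.321 and 0.295 against 4.26 ± 0.210 TPM (SD, n = 2), a difference of -1.98 ± 0.09. Ptgds, a prostaglandin D synthase, had 18.2, 20.7 and 17.7 TPM in SPRET and was listed at 0 in both PWK libraries.

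Glycolysis genes and HIF targets were higher in SPRET in 10 of 27 (37.0%) and in PWK in 2 (7.41%). The 10 include Gapdh and 4 more genes with near copies elsewhere in the genome, and of the 18 without one 5 were higher in SPRET and 2 in PWK. Pfkl (216, 212 and 219.7 against 55.7 and 56.1 TPM, 1.93 ± 0.05) and Eno1 (1308, 1307 and 1265 against 279 and 272 TPM, 2.23 ± 0.04) were among the 10, and Hk3, a hexokinase of myeloid cells, among the 2 (5.31, 5.45 and 6.13 against 137 and 124 TPM, -4.31 ± 0.07). Of 54 oxidative phosphorylation subunits 9 were higher in SPRET (16.7%, near the 14.2% of all genes) and 0 in PWK, and 5 and 0 of the 45 without a near copy. Cox5b had 355, 343 and 355 against 12.5 ± 0.808 TPM (SD, n = 2), a difference of 4.70 ± 0.20. Of 33 NRF2 and glutathione genes 8 were higher in SPRET, such as Mgst2 (3.84 ± 0.09), and 7 in PWK, such as Gpx3 (-4.05 ± 0.08). The stress genes Ddit3 (24.3, 24.3 and 27.5 against 173 and 179.9 TPM, -2.75 ± 0.09), Atf3 (-2.93 ± 0.07), Atf4 (-1.21 ± 0.05) and Hspa5 (-1.38 ± 0.05) were higher in PWK. These genes fall in the heat shock and unfolded protein list, with 6 of 19 higher in PWK and 2 in SPRET, and in the list of AP-1 and EGR genes, with 2 of 15 higher in PWK and 4 in SPRET.

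Factors that set the macrophage lineage were higher in SPRET in 5 of 18 (27.8%) and in PWK in 1 (5.56%), 12 were not called, and the corrected median difference lay the other way, at -0.44. Tfec, a relative of MITF, had 42.9, 39.7 and 40.3 against 3.28 and 3.33 TPM (3.28 ± 0.07, adjusted p = 2.04e-23). Spi1, which encodes PU.1, had 340.3, 363 and 322 against 156 and 169.8 TPM. It was called at 1.06 ± 0.13 and not after median-ratio scaling, at 0.82. Id2, an inhibitor of E proteins, was higher in PWK (46.7, 50.7 and 45.1 against 285 and 280.4 TPM, -2.55 ± 0.06).

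Among matrix-degrading enzymes and their inhibitors 4 of 16 were called in each direction (4 higher in SPRET and 6 in PWK after median-ratio scaling). Mmp12, macrophage elastase, had 2.84, 4.46 and 2.92 TPM in SPRET and 550.1 and 572 in PWK (-7.01 ± 0.11, adjusted p = 1.04e-25). Mmp13, a collagenase, had 0.338, 0.205 and 0.321 against 39.1 and 39.2 TPM (-4.96 ± 0.10). The inhibitor gene Timp2 went the other way with 127, 135 and 126 against 11.9 and 12.1 TPM (3.32 ± 0.04, adjusted p = 1.48e-26). Of the osteoclast markers, Ctsk was higher in SPRET (2.90 ± 0.10) and Acp5 higher in PWK (-2.44 ± 0.05). Of 36 genes of cathepsins and the lysosome 8 were higher in SPRET and 11 in PWK. Ctsd, the most abundant cathepsin here, did not differ beyond the threshold, at 8502, 8964 and 8721 against 7593 and 7404 TPM (0.22).

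Of the signalling genes through which IL-4 acts, 19 were tested, and 6 were higher in SPRET and 1 in PWK. Il4ra, the receptor, had 76.2, 79.0 and 80.9 TPM against 31.8 and 34.2 (1.23 ± 0.07), and after median-ratio scaling, at 0.99, it was no longer called. Stat6 had 64.1, 66.0 and 63.8 against 42.6 and 40.8 TPM and was not called (0.62 ± 0.07). Jak3 (1.86 ± 0.12) and Socs2 (1.76 ± 0.14) were higher in SPRET, and the feedback inhibitor Socs1 was higher in PWK, at 0.342, 0.280 and 0.216 against 4.37 and 3.10 TPM (-1.88 ± 0.22). Of 33 IL-4 target genes 7 were higher in SPRET and 4 in PWK before any IL-4 was added. Arg1, arginase, had 6.38, 7.33 and 5.87 TPM in SPRET and 16.7 and 23.7 in PWK (-1.48 ± 0.18). Slc7a2, which imports arginine, was not called (75.4, 74.2 and 71.3 against 90.1 and 81.7 TPM), nor was Egr2 (1.87, 2.20 and 1.97 against 3.37 and 3.44 TPM, -0.55 ± 0.10). The factor gene Msx3 was at 0 TPM in 4 of the 5 libraries and at 0.0290 in 1. Arginine and polyamine genes were higher in PWK in 4 of 17 (23.5%) and in SPRET in 1 (5.88%). Nos2, which competes with arginase for arginine, was among the 4 (-1.23 ± 0.09).

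**Figure D4:**
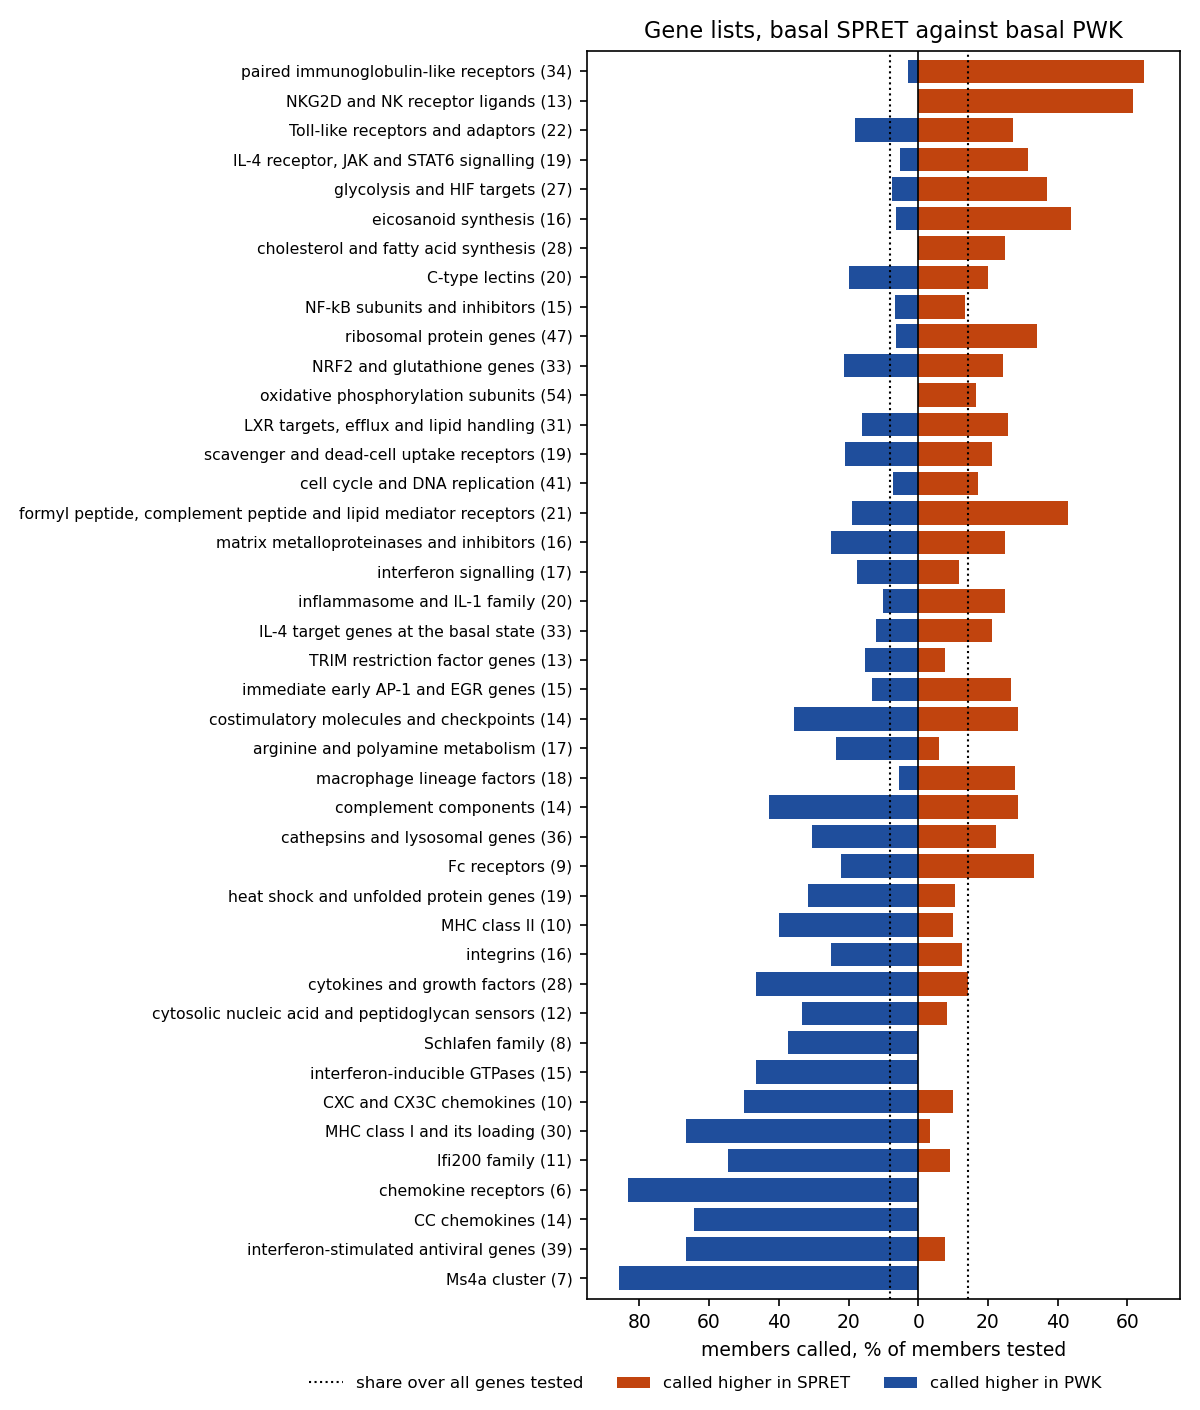
Percent of the tested members of each gene list called higher in SPRET (right) and higher in PWK (left), with the number tested in parentheses and dotted lines at 14.2% and 8.20%, the shares over all 11907 genes. Paired receptors reach far to the right, at 22 of 34, and the Ms4a, chemokine and antiviral lists far to the left, the last at 26 of 39.

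The NF-kB and cell cycle lists were near the 22.4% of all genes, with 20.0% and 24.4% called. NF-kB subunits and inhibitors were higher in SPRET in 2 of 15 and in PWK in 1, and cell cycle and replication genes in 7 of 41 and in 3. Of 6 tested genes of X inactivation and the Y chromosome 0 were called, and after median-ratio scaling 1 was higher in PWK.

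The largest difference in favour of SPRET was that of Lyz1. It had 14693, 14484 and 14634 TPM in SPRET and 16.6 and 17.2 in PWK (9.67 ± 0.35, adjusted p = 4.92e-18), an 863-fold ratio of the means, and the C57, BALB and NOD means were 7.48, 12.9 and 24.1 TPM. Lyz1, the lysozyme of the gut in house mice, lies beside Lyz2 on chromosome 10, and their transcripts are 95.8% identical in the reference, so that reads can be shared between them. In F1 C57xSPRET cells the SPRET allele of Lyz1 had values of 11345 and 8936 and the C57 allele 481 and 396. Fxyd2, a regulator of the sodium pump, had 1970.4, 1784 and 2001 against 2.29 and 5.50 TPM (8.69 ± 0.17, adjusted p = 1.60e-23), and 127, 97.3 and 93.6 TPM in the laboratory strains. Clu, a secreted chaperone, had 155, 159 and 155 against 0.468 and 0.638 TPM (6.66 ± 0.14, adjusted p = 8.26e-23).

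Several genes that every cell uses were listed near 0 in some strains. Ppia, cyclophilin A, was listed at 618, 599 and 612 TPM in SPRET and 0.577 and 0.450 in PWK, and Gapdh at 383, 385 and 394 against 1.93 and 1.49 TPM. In C57, BALB and NOD both were listed at 2.00 TPM or less as well. Rpl38 was listed at 729, 649 and 742 against 1.21 and 1.47 TPM, and Gstp2 at 378, 357 and 389 against 1.47 and 0.441. The other direction was seen in Rpl29, at 0.990, 0.707 and 1.02 in SPRET against 254 and 285 TPM in PWK, and Rps19, at 2.68, 2.74 and 2.33 against 267 and 292. Such genes often have near copies in the genome to which reads can be assigned, so the values are given as listed and not as expression. A search of the reference transcripts counted near copies only at loci that do not overlap the gene. By it, Rpl29 had 35 near copies, Ppia 19, Rps23 12, Rpl11 6, Gapdh 3, Rpl38 3, Naca 2, Gstp2 2, and Rps19 and Rps13 had 0. Of the tested genes, 11626 were matched to a reference transcript. Among them, 21.6% of those with no near copy were called, 27.4% of those with 1 to 4 and 43.4% of those with 5 or more. Without the genes that have a near copy so counted, 1415 were higher in SPRET and 835 in PWK of 10429. Similar genes at overlapping loci can remain among these. Ribosomal protein genes were higher in SPRET in 16 of 47 and in PWK in 3 (15 and 4 after median-ratio scaling), but in 1 and 1 of the 9 without a near copy. Without near copies the paired receptors held 8 genes higher in SPRET and 1 in PWK of 17, the antiviral genes 3 and 18 of 30, and MHC class I 1 and 12 of 19. The part of shared reads in single genes was not tested.

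The largest differences in favour of PWK included secreted proteins of granules and mucosa. Lcn2, lipocalin that binds bacterial siderophores, had 1.39, 2.26 and 1.55 TPM in SPRET and 844 and 832 in PWK (-8.27 ± 0.11, adjusted p = 1.97e-26). Wfdc17, a small secreted protein of the whey acidic type, had 1.34, 1.76 and 1.41 against 688 and 709 TPM (-8.13 ± 0.06, adjusted p = 1.81e-32). Stfa1, stefin A1, an inhibitor of cathepsins, had 0.503, 0.330 and 0.795 against 339 and 419.8 TPM (-7.95 ± 0.21, adjusted p = 8.97e-21). The strains differ in which of them stands apart, since Wfdc17 was at 751, 686 and 1149.6 TPM in C57, BALB and NOD, while Stfa1 was at 0.269, 0 and 0.237. Lcn2 lay between, at 83.7, 33.3 and 133.

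S100a9, a calcium-binding protein of neutrophils and monocytes, had 0.269, 0.132 and 0.636 TPM in SPRET and 187 and 190.5 in PWK (-7.16 ± 0.26, adjusted p = 5.93e-18), while its partner S100a8 did not differ. The metallothionein gene Mt2 had 7.29, 10.0 and 8.70 against 1231 and 1396 TPM (-7.09 ± 0.14). Beside S100a9, the granule genes Ltf, Ngp, Mmp8 and Prtn3 were called higher in PWK. The PWK levels were 3.34 and 3.61 TPM for Ltf (listed at 0 in SPRET), 4.30 and 3.12 for Ngp and 3.21 and 4.00 for Mmp8. Prtn3 differed by -2.51, and Camp was not called. Whether neutrophil-lineage cells bear on Lcn2, Stfa1 and S100a9 was not tested.

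Taking all 1687 genes higher in SPRET, the SPRET mean was above that of all 4 other strains in 1385. By a margin of 2-fold, SPRET alone lay outside the range of C57, BALB and NOD in 512 (30.3%), PWK alone in 118 (6.99%), and neither in 1011 (59.9%). Of the 976 genes higher in PWK, SPRET was below all others in 800, and SPRET alone lay outside the range in 367 (37.6%) and PWK alone in 120 (12.3%). These shares describe the same libraries that chose the genes. In the separately normalized time course, both basal SPRET libraries were compared with both basal PWK libraries. They lay above both in 96.0% of the genes higher in SPRET (65.7% of all tested). They lay below both in 88.6% of those higher in PWK (23.5% of all tested).

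Some calls lay side by side in the genome. The next tested gene on the chromosome (mm10) was called in the same direction for 21.8% of the genes higher in SPRET, against 14.2% of all genes, and for 19.4% of those higher in PWK, against 8.19%. Runs of at least 4 adjacent calls numbered 19 for SPRET and 10 for PWK. The longest outside the Pcdhg cluster, where 22 annotated genes share exons, held 10 genes higher in PWK at chr16:36156811-36666077, with the stefin A genes and Cd86. For SPRET, 9 genes lay at chr11:114344526-115062039 with the Cd300 family, 8 at chr7:3712505-3915501 with the Pira genes and Lilra6, 7 at chr10:22158609-22374139 with Raet1 and H60b, and 4 at chr7:19671579-19699188 with Apoe. For PWK, 8 lay at chr11:83525779-83752646 with Ccl5 and Wfdc17, 8 at chr17:35342333-35474563 with the H2-Q genes, 5 at chr19:34492316-34650009 with the Ifit genes and 4 at chr7:140954839-141016892 with the Ifitm genes. Many of these are gene families whose members resemble each other. By chromosome, the share called ran from 16.9% on X to 24.9% on 7.

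A set of 43 genes was under 0.1 TPM in all libraries of 1 strain and at 5 TPM or more in all of the other, 16 near 0 in PWK and 27 near 0 in SPRET. In PWK, Dmrtb1 had 0.0470 and 0 TPM against 46.4, 46.2 and 43.8 in SPRET. Hebp2 had 0 and 0.0430 in PWK against 11.9, 12.3 and 11.2 in SPRET. Tgfb1i1, a focal adhesion protein, had 0.0220 and 0.0220 in PWK against 11.1 ± 0.255 in SPRET (SD, n = 3). Tpbpa was listed at 0 in PWK against 15.1, 16.4 and 15.0 TPM in SPRET, but the 2 time course SPRET libraries, normalized separately, stood at 0 and 0.475 TPM. In SPRET, Ctgf, a matricellular growth factor, had 0.0580, 0.0570 and 0.0270 TPM against 43.7 and 50.7 in PWK, and the serotonin receptor gene Htr2b 0.0670, 0.0330 and 0.0320 against 22.4 and 23.2. The low level picks these genes, so no test is attached. Across the other strains the pattern varied. Htr2b was at 21.1, 16.0 and 18.7 TPM in C57, BALB and NOD, so that SPRET was the lowest strain, whereas Ctgf was at 0.0183, 0.0790 and 0.117, so that PWK was the highest. In F1 cells, Tgfb1i1 had allele values of 31.4 and 32.8 for SPRET and 5.66 and 5.81 for C57, and Htr2b of 1.61 and 0.938 for SPRET and 14.4 and 9.31 for C57.

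Most of the differences were also seen in the 6 libraries after 24 h of IL-4, which share no library with the 5 basal ones, though whether they share mice is not stated. With IL-4, 1698 genes (14.3%) were higher in SPRET and 994 (8.35%) in PWK, together 22.6%. Of the genes called at the basal state, 1254 of 1687 (74.3%) and 752 of 976 (77.0%) had the same call after IL-4, while 3 and 8 had the opposite call. The sign was kept in 99.1% and 97.8%, where 62.6% and 36.9% of all tested genes had those signs. The antiviral list held 27 genes higher in PWK and 3 higher in SPRET after IL-4, and the paired receptors 17 in SPRET and 2 in PWK. The change of the difference itself was called in 370 genes (3.11%), positive in 168 (1.41%) and negative in 202 (1.70%), with 205 of them among the 2663 basal calls.

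Some genes changed sides. Ccl9 was higher in PWK at the basal state (2.24, 2.61 and 1.99 against 36.1 and 37.5 TPM, -3.53 ± 0.07) and higher in SPRET after IL-4 (means of 156 and 64.8 TPM, 1.26), a change of 4.79 ± 0.09 (adjusted p = 1.61e-22). Socs1 turned likewise, from -1.88 to 2.87, with IL-4 means of 65.8 and 8.20 TPM (change 4.75 ± 0.30, adjusted p = 7.35e-12). Clec10a, a lectin of alternatively activated macrophages, turned the other way, from 16.9, 16.9 and 16.7 against 2.27 and 2.76 TPM to means of 16.8 and 96.1 (change -4.79 ± 0.27, adjusted p = 1.12e-12). The SPRET mean was 16.8 TPM in both states, and in the separately normalized time course the basal SPRET libraries stood at 74.8 and 63.6 TPM. Of the 33 IL-4 target genes 17 changed in their difference, and 17 were higher in SPRET and 8 in PWK after IL-4. Mmp12 (basal -7.01) kept its direction with a smaller difference, with IL-4 means of 117 TPM in SPRET and 1846 in PWK (-3.97). Spp1 was no longer called after IL-4 (-0.90, means of 1202 and 2247 TPM), and Arg1 kept its difference (-1.34) at means of 853 and 2151 TPM, with no call on the change (0.14 ± 0.24). Among the genes of host defence, Ifitm3 (-6.26), Irf7 (-3.84) and Isg15 (-4.83) had nearly the basal difference after IL-4.

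**Figure D5:**
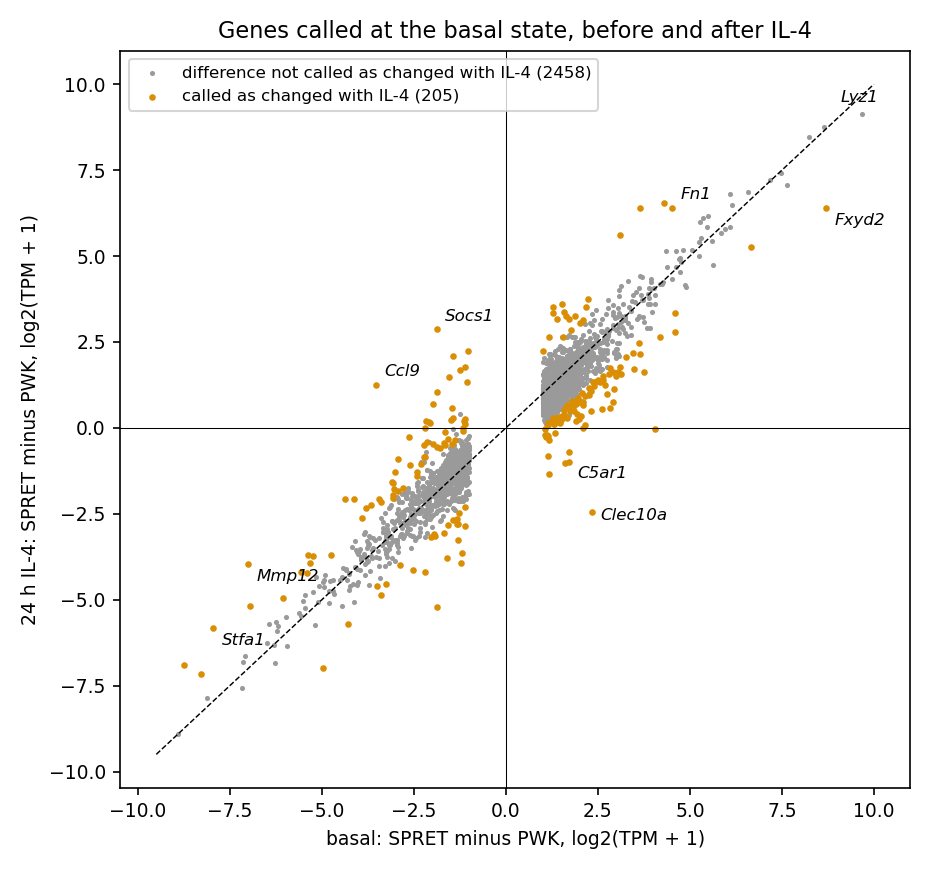
Difference SPRET minus PWK at the basal state (x axis) and after 24 h of IL-4 (y axis), both on the log2(TPM + 1) scale, for the 2663 genes called at the basal state, with the dashed line at equal differences. The 205 genes whose difference was called as changed are in orange, with Ccl9, Socs1 and Clec10a among those on the other side of 0 after IL-4.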

How the data were processed

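The authors aligned single-end poly(A) RNA-seq reads with STAR to a genome of each strain that MMARGE had built from mm10 and known variants, moved them to mm10 coordinates, and deposited TPM values made with HOMER. The F1 allele values, also deposited by the authors, are read as a score of each allele. Counts of genes with allele values took those with the largest basal value at 5 or more. Columns with the authors' own DESeq2 comparisons were not used. The strand setting of the counting is not given in the sources used here, so overlapping and antisense genes are uncertain.

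TPM plus 1 was put on the log2 scale and fitted with limma 3.58.1 (R 4.3.3), with 10 group means over 29 libraries, 19 residual degrees of freedom and a trended prior. The filter asked for 1 TPM or more in 2 or more libraries and left 11907 of 24537 genes. A call needed a fold over 2 and a Benjamini-Hochberg adjusted p under 0.05. The test was checked on simulated data. The median-ratio and quantile scalings, pseudocounts, filters, priors, thresholds, a replicate block and single libraries left out were tried as alternatives.

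Near copies were found with BLAST 2.17.0 (at least 95% identity over at least 50% of the shorter transcript). Genes at overlapping loci were not counted as near copies of each other. Genes were named by rule: the 12 largest calls each way without overlap and with at least 10 TPM, up to 4 per list, 8 near-zero genes each way, and markers. The strains, the genes and the 52 lists were chosen with earlier results of these data known, and genes named outside the rule were picked after their values were seen.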

Additional observations from a re-analysis of the deposited data

Results flagged for a closer look

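A group of 9 named genes had a SPRET minus PWK difference that changed with IL-4, by the interaction term of the limma model with Benjamini-Hochberg adjustment. Mmp12, macrophage elastase, moved by 3.04 ± 0.14 (adjusted p = 2.06e-14), from -7.01 at the basal state to -3.97, and was lower in SPRET in both states. Stfa1 moved by 2.12 ± 0.29 (adjusted p = 3.89e-06) and Lcn2 by 1.11 ± 0.15 (adjusted p = 4.37e-06), again towards a smaller difference. Egr2, a factor induced by IL-4, moved by 2.08 ± 0.13 (adjusted p = 9.76e-12), with no call at the basal state (-0.55) and means of 50.4 TPM in SPRET and 16.8 TPM in PWK after IL-4.

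Fxyd2 moved by -2.30 ± 0.23 (adjusted p = 2.89e-08) and Clu by -1.39 ± 0.19 (adjusted p = 4.44e-06), both still higher in SPRET after IL-4. Cd14, a receptor for lipopolysaccharide, moved by -1.73 ± 0.09 (adjusted p = 1.13e-13), to means of 242 TPM in SPRET and 1744 TPM in PWK. The markers Itgam (-1.45 ± 0.12, adjusted p = 2.08e-09) and Aif1 (-1.13 ± 0.19, adjusted p = 6.17e-05) were not called at the basal state, with IL-4 means of 29.5 and 47.5 TPM and of 4.43 and 15.6 TPM.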

How the results depend on the processing

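Pairs of numbers are genes higher in SPRET and in PWK, or positive and negative changes with IL-4. A pseudocount of 5 TPM gave 748 and 543 basal calls, 789 and 529 after IL-4 and 91 and 83 changes, and one of 0.1 TPM gave 322 negative changes. A fold over 1.5 gave 3332 and 1723, 3429 and 1757, and 473 and 611, and a fold over 4 gave 339 and 364, 353 and 366, and 46 and 30. Median-ratio scaling gave 1219 and 1243 basal calls and 1075 and 1283 after IL-4. Leaving out single libraries gave 1621 to 1777 and 964 to 995 basal calls, 1670 to 1745 and 980 to 1011 after IL-4, and 162 to 173 and 193 to 211 changes.

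Deviations of same-numbered libraries had r from -0.081 to 0.047 (15 pairs, 0 over 0.1). Many of these pairs set SPRET beside PWK. Within a strain r was -0.046 and -0.081 for PWK and 0.033, 0.045 and 0.044 for SPRET. With 2 or 3 libraries per group this check cannot tell whether basal and IL-4 libraries share mice. The main fit did not pair them. The fit with a replicate block gave 1714 and 967 basal calls, 1697 and 994 after IL-4 and 166 and 206 changes. Over the alternatives for 215 named genes, 3541 values kept their side of the threshold, 97 lost the call, 57 of them at a fold over 4, 6 gained it and 0 reversed. Leaving out genes with a near copy, chosen after the data were seen, gave 1415 and 835.

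With 2 PWK libraries, the spread of that group rests on the other groups of the model. TPM carries no depth per gene, so counting error at low levels is unknown. How well reads of each strain align was not tested.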

Other observations

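Some of the most abundant transcripts differed by less than 2-fold. Fth1, the ferritin heavy chain, had 81958, 84867 and 81819 TPM in SPRET and 103635 and 105297 in PWK, and Saa3, an acute-phase protein, 72741, 66829 and 72702 against 67048 and 70116 TPM. Neither passed the fold threshold, though the libraries of Fth1 did not overlap. S100a8 and Camp, which mature neutrophils also express, were not called either, at 9.35, 9.41 and 10.4 against 11.2 and 12.3 TPM for Camp.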
